A study of Homo sapiens with 6 samples.

Results

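HNF4A, CDX2, MUC13, MGAM and CA2 are 5 genes of intestinal epithelium: a pair of gut transcription factors and 3 products of absorptive cells. They were chosen by gene symbol from 7681 genes that the study lists as differing between HCT116 cells labelled Rab27B KO and wild-type HCT116 cells. HCT116 is an established human colorectal carcinoma line. RNA was sequenced from 3 cultures of wild-type cells and 3 cultures of cells in which RAB27B, a small GTPase of secretory vesicles, was targeted with CRISPR/Cas9. All 6 cultures were untreated and grown for 48 hours, and the labels do not say whether the edited cells are 1 clone. The files analysed here give each gene a log2 ratio of Rab27B KO over wild type (its log2 fold change) with a q-value, and no value for any single sample. The spread between replicates, the depth and the level of a transcript in either genotype are therefore unknown, and no error can be put on a fold change. The 5 genes were picked with these fold changes known, so their values are given as a description, with no test added.

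HNF4A is a nuclear receptor of gut, liver and kidney. In the gut it holds a broad programme of absorptive genes active and works with the GATA factors. CDX2 is the homeobox factor that sets intestinal identity in the embryo and keeps it in the adult epithelium. MUC13 is a transmembrane mucin of the apical surface, and MGAM (maltase-glucoamylase) is a brush-border enzyme that releases glucose from starch fragments. CA2 is a carbonic anhydrase of the cytosol rather than of the brush border, and it serves acid-base transport in surface colonocytes. In colorectal tumours loss of CDX2 or of HNF4A isoforms is known from poorly differentiated cases.

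The stretch of DNA just before the start site is shown for some of the 5 genes, because HNF4 and CDX proteins bind known letter patterns. The RefSeq promoter table (GRCh38.p14) held 4 of the 5 genes, and CA2 was not matched. Each line gives the 250 bases before a start site, 5′ to 3′ on the strand of the gene. MUC13 and MGAM are shown because they fell furthest, and CDX2 as a factor whose own pattern was searched. The windows of HNF4A were searched in the same way, held no match and are not printed. Capitals mark every match, on either strand, to an HNF4 pattern (CAAAGTCCA, or the looser CAAAGNNCA, which also takes in the first) or a CDX pattern (TTTATNG).
CDX2, chr13:27969316-27969565, minus strand: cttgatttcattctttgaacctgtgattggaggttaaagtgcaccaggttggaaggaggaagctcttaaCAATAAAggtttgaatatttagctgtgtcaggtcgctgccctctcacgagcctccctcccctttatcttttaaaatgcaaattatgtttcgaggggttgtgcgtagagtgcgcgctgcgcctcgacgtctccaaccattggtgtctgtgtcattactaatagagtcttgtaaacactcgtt
MUC13, chr3:124934752-124935001, minus strand: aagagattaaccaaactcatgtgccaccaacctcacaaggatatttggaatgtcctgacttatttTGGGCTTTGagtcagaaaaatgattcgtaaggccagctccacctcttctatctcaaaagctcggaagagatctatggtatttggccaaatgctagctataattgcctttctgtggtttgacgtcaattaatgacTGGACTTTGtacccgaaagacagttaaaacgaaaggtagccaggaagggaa
MGAM, chr7:141995629-141995878, plus strand: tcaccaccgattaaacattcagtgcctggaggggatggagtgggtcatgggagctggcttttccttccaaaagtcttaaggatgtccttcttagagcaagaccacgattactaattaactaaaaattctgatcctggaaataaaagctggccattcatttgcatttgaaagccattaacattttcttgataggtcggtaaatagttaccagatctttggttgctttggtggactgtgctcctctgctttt

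The MUC13 window held the full HNF4 pattern CAAAGTCCA on the strand opposite to the gene, beginning 51 bases before the start site. That pattern was present in 114 of 35116 windows of the same length (0.325%). The patterns were chosen with the promoters in view, so this share describes how common the letters are and is not a test. A second MUC13 match, 185 bases before the start site, was to the looser HNF4 pattern, which 4.44% of windows held. The CDX pattern was found once before CDX2 itself, and 8.93% of all windows held it. Neither pattern was in the MGAM window or in those before the 2 listed starts of HNF4A, which lie 45540 bases apart. The MGAM window precedes a start site of the promoter table that lies inside the gene span given below, so it is not the DNA before the first base of that span. The patterns were not confined to lower genes. Of 38 listed genes of the gut lists below with a window, 1 held the full HNF4 pattern, the microvillus gene MISP, which was higher (log2 ratio of 0.44 per the authors' deposited table). The looser pattern was in 3 of the 38. These were MISP and the lower genes EPS8L3 and HEPH (log2 ratios of -6.08 and -2.56 per the authors' deposited table). The CDX pattern was in 5, of which FOXA3, ELF3 and MGAM2 were lower and KLF5 and PLS1 higher. These genes were named for their matches. Genes were counted here, and windows in the shares above. A gene can have more than 1 window, so these counts and shares are not on the same scale. These matches describe letters only, and no binding was measured.

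The transcript of the edited gene did not go the way of its label. By the authors' deposited table, RAB27B stood at a log2 ratio of 5.20, or 36.7-fold higher, with a q-value listed as 0. Directions are accordingly given as the headers state them, for samples labelled Rab27B KO against those labelled wild type. An exchange of the labels, or of the 2 sides of the ratio, could not be checked without values per sample. If there was one, every higher and lower given here would turn, CA2 would be the 1 lower gene of the 5, and the sizes would stay. Of all listed genes 50.7% were higher and 49.3% lower, so a lower value alone is near the background. The number of genes tested is unknown. As a stand-in, 37.9% of the 20052 protein-coding genes of the reference were listed, 19.2% as higher and 18.7% as lower.

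The gene for the nuclear receptor HNF4A (gene ID 3172; GRCh38 chromosome 20, 44355699 to 44434596, plus strand) was 7.82-fold lower in the samples labelled Rab27B KO. The authors' deposited table gives it a log2 ratio of -2.97 and q = 1.69e-76. Counting HNF4A itself, 103 of the 3783 lower genes fell by at least as much per the authors' deposited table, and only 3 of them had a smaller q-value. HNF4A thus paired a large fold with a very small q-value. The gene overlaps the antisense gene HNF4A-AS1 in GENCODE release 29, and since strand-specific counting is not stated, reads of the 2 cannot be told apart.

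CDX2 (gene ID 1045; chromosome 13, 27960918 to 27969315, minus strand) showed a much smaller difference, 1.68-fold lower. Its log2 fold change per the authors' deposited table was -0.75, with q = 3.63e-17. A larger fall was listed for 803 lower genes, or 21.2% of the lower table per the authors' deposited comparison. The gut factors thus shared a direction but not a size. HNF4A minus CDX2 came to -2.22 on the log2 scale per the authors' deposited table, and no test of that difference could be made.

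The surface products were at the far end of the lower table. MUC13 (gene ID 56667; chromosome 3, 124905442 to 124934751, minus strand) had a log2 ratio of -6.46, or 88.0-fold lower, with q = 2.50e-06 per the authors' deposited table. MGAM (gene ID 8972; chromosome 7, 141986518 to 142106747, plus strand) had one of -6.39, or 83.8-fold lower, with q = 3.79e-06 per the authors' deposited table. They ranked 7 and 9 by size among the 3783 lower genes, but 1743 and 1785 by q-value, per the authors' deposited table. So the mucin and the maltase had folds far above that of HNF4A, with far weaker q-values.

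A q-value of that size was usual among the steepest falls. Of all listed genes 30 (0.391%) had a log2 ratio of -5 or less per the authors' deposited table, with q-values from 6.25e-73 to 0.00201 and a median of 2.75e-06. Of these 30 genes 14 had a smaller q-value than MUC13 and 16 a smaller one than MGAM per the authors' deposited table. The counts behind MUC13 and MGAM are unknown, and whether 1 genotype had almost no reads of them was not tested. How the authors treated very low values is given by no source used here.

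CA2, the cytosolic carbonic anhydrase (gene ID 760), went the other way. It was 2.53-fold higher, a log2 ratio of 1.34 with q = 2.06e-62 per the authors' deposited table. A larger rise was listed for 285 higher genes (7.31% of the higher table) per the authors' deposited comparison, and 160 higher genes had a smaller q-value. The 5 genes therefore did not move as 1 set: 4 were lower and 1 higher, over a span of 7.80 on the log2 scale per the authors' deposited tables.

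**Figure D1:**
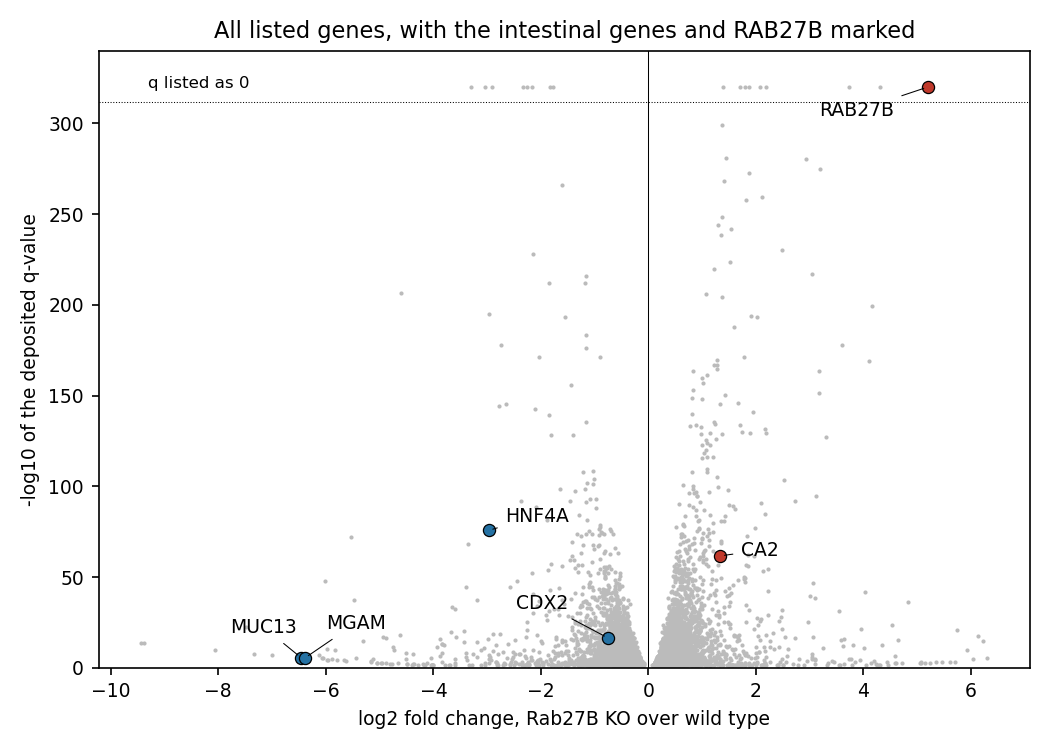
Log2 fold change, Rab27B KO relative to wild type (x axis), against the negative log10 of the deposited q-value (y axis) for 7681 listed genes (grey points), with the 5 intestinal genes and RAB27B labelled, red for higher and blue for lower. MUC13 and MGAM lie far left and near the bottom, HNF4A combines a log2 value of -2.97 with a high position, and RAB27B lies on the top line, where q-values listed as 0 are drawn.

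Sequence shared with other genes was looked for, since shared reads make a value uncertain. In GENCODE release 29, over the longest coding transcript of each, no stretch of 100 bases was shared with a transcript of another gene. At 50 bases HNF4A shared 0.0313% of its stretches, with PIAS2, and the other 4 genes shared none. MGAM therefore shared no such stretch with MGAM2, its neighbour and paralog. CA2 overlaps the antisense gene CA3-AS1, with the same limit as for HNF4A. The annotated span of MGAM also takes in CLEC5A and TAS2R38 on the other strand and OR9A4 on its own, none of them listed.

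Among the listed genes, longer transcripts were less often higher. With the listed genes split into 4 equal classes by transcript length, the share of higher genes was 72.3% in the shortest class, 54.9% and 43.9% in the next classes and 32.2% in the longest. CA2, at 1717 bases, lay in the shortest class. MUC13 (2879 bases) was in the second class, CDX2 (4053 bases) in the third, and HNF4A (6445 bases) and MGAM (9172 bases) in the longest. The 1 higher gene was thus the shortest of the 5, and the part of length in their values was not tested.

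Position was examined because whole chromosomes leaned one way. CDX2 lies on chromosome 13, where 20 of 148 listed genes were higher (13.5%, 95% Wilson interval 8.92 to 19.95%), the lowest share of the 23 chromosomes. With the ratio turned, the 128 lower genes there would be the higher ones, and the share the highest. The other 127 lower genes of that chromosome had a median log2 ratio of -0.46, less than the fall of CDX2, and 21 of them fell further per the authors' deposited table. Within 1 Mb of CDX2 the median of the listed genes was -0.03. MGAM lies on chromosome 7, where 33.0% of 400 listed genes were higher (28.6 to 37.8%). None of the other 267 lower genes there fell as far as MGAM, and their median was -0.46 per the authors' deposited table. The lean of chromosomes 13 and 7 moves with the direction of CDX2 and MGAM, and its part in their values was not tested.

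HNF4A and MUC13 were lower on chromosomes that leaned the opposite way. Of 207 listed genes on chromosome 20, 64.3% were higher (57.5 to 70.5%), and of 419 on chromosome 3, 60.6% were higher (55.9 to 65.2%). Among the fewer genes with a log2 size of at least 1 the share on chromosome 20 was 46.7%, with no interval computed. Only 2 of the other 73 lower genes of chromosome 20 fell further than HNF4A, and none of 164 on chromosome 3 fell further than MUC13, per the authors' deposited table. Chromosome 8, which holds CA2, had 53.6% of 276 listed genes higher (47.7 to 59.4%). There 13 of the other 147 higher genes had a larger rise than CA2 per the authors' deposited table. The intervals cover counting error only.

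**Figure D2:**
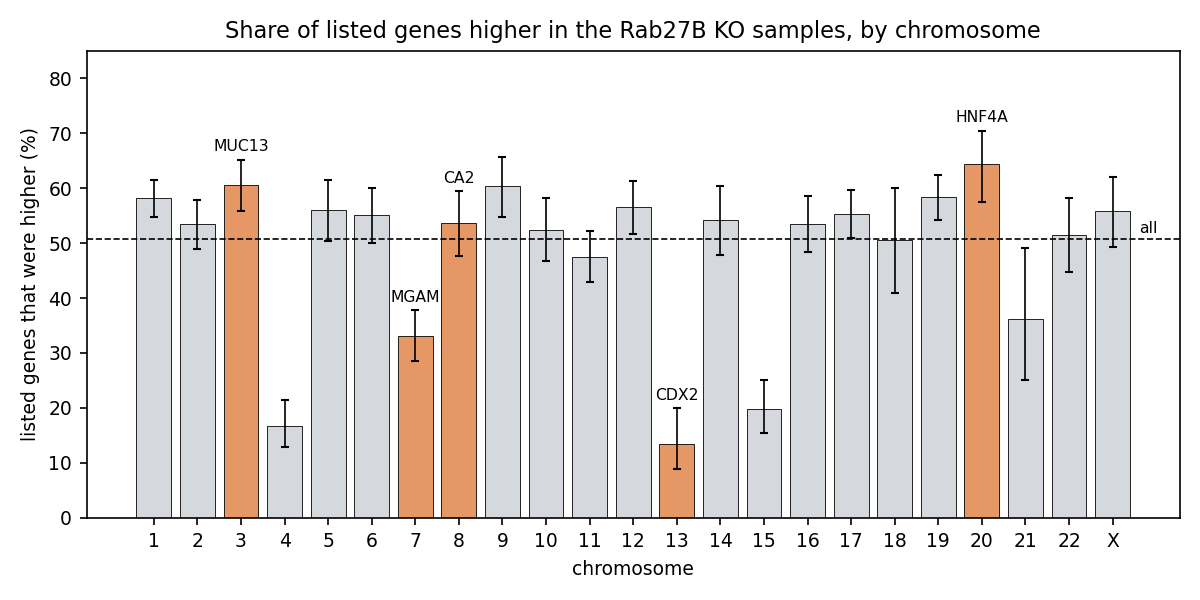
Share of listed genes that were higher in the samples labelled Rab27B KO (y axis, percent) on each chromosome (x axis), with 95% Wilson intervals as error bars; orange bars are the chromosomes of the 5 genes and the dashed line is the share over all listed genes, 50.7%. CDX2 sits on the lowest bar (13.5%) and HNF4A on the highest (64.3%).

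Close neighbours gave a finer view. Over all coding genes of the reference 37.9% were listed, and the counts of neighbours were not tested against that share. Around MGAM, 5 of 22 coding genes with a start within 1 Mb were listed, 2 higher and 3 lower. The nearest, MGAM2, starts 125 kb downstream and was also far lower, with a log2 ratio of -5.88 and q = 1.33e-05 per the authors' deposited table. MGAM2 encodes a protein similar to maltase-glucoamylase. DENND11, on the other side of MGAM, was at -0.85, and the calcium channel gene TRPV6, 899 kb downstream, at -2.27 per the authors' deposited table. EPHB6 and MRPS33 were slightly higher, at log2 ratios of 0.27 and 0.25 per the authors' deposited table. The steep falls in this region were thus in MGAM and MGAM2 and, less so, in TRPV6.

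Around HNF4A 12 of 33 coding genes were listed, 8 higher and 4 lower, with a median log2 ratio of 0.26 per the authors' deposited table. The 5 nearest were FITM2 at 0.48, TTPAL at -0.24, SERINC3 at 0.16, PKIG at 0.27 and ADA at 0.24 on the log2 scale per the authors' deposited table. None of these approached the change of HNF4A. The largest neighbouring change was a rise in SLPI, a secreted protease inhibitor gene picked with its value in view, at a log2 ratio of 3.06 per the authors' deposited table.

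Near MUC13 4 of 11 coding genes were listed, 2 higher and 2 lower. HEG1, the nearest, was 2.16-fold higher, and ZNF148, KALRN and CCDC14 had log2 ratios of -0.27, 0.54 and -0.71 per the authors' deposited table. Near CDX2 8 of 16 were listed, 4 in each direction. PAN3, the nearest, was 1.58-fold lower, close to the 1.68-fold of CDX2, while LNX2, POLR1D, POMP and RASL11A had log2 ratios of -0.22, -0.21, 0.14 and 0.60 per the authors' deposited table. Near CA2 3 of 13 were listed. RBIS was 1.20-fold higher, and E2F5 and LRRCC1 were 2.30-fold and 1.83-fold lower per the authors' deposited table.

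**Figure D3:**
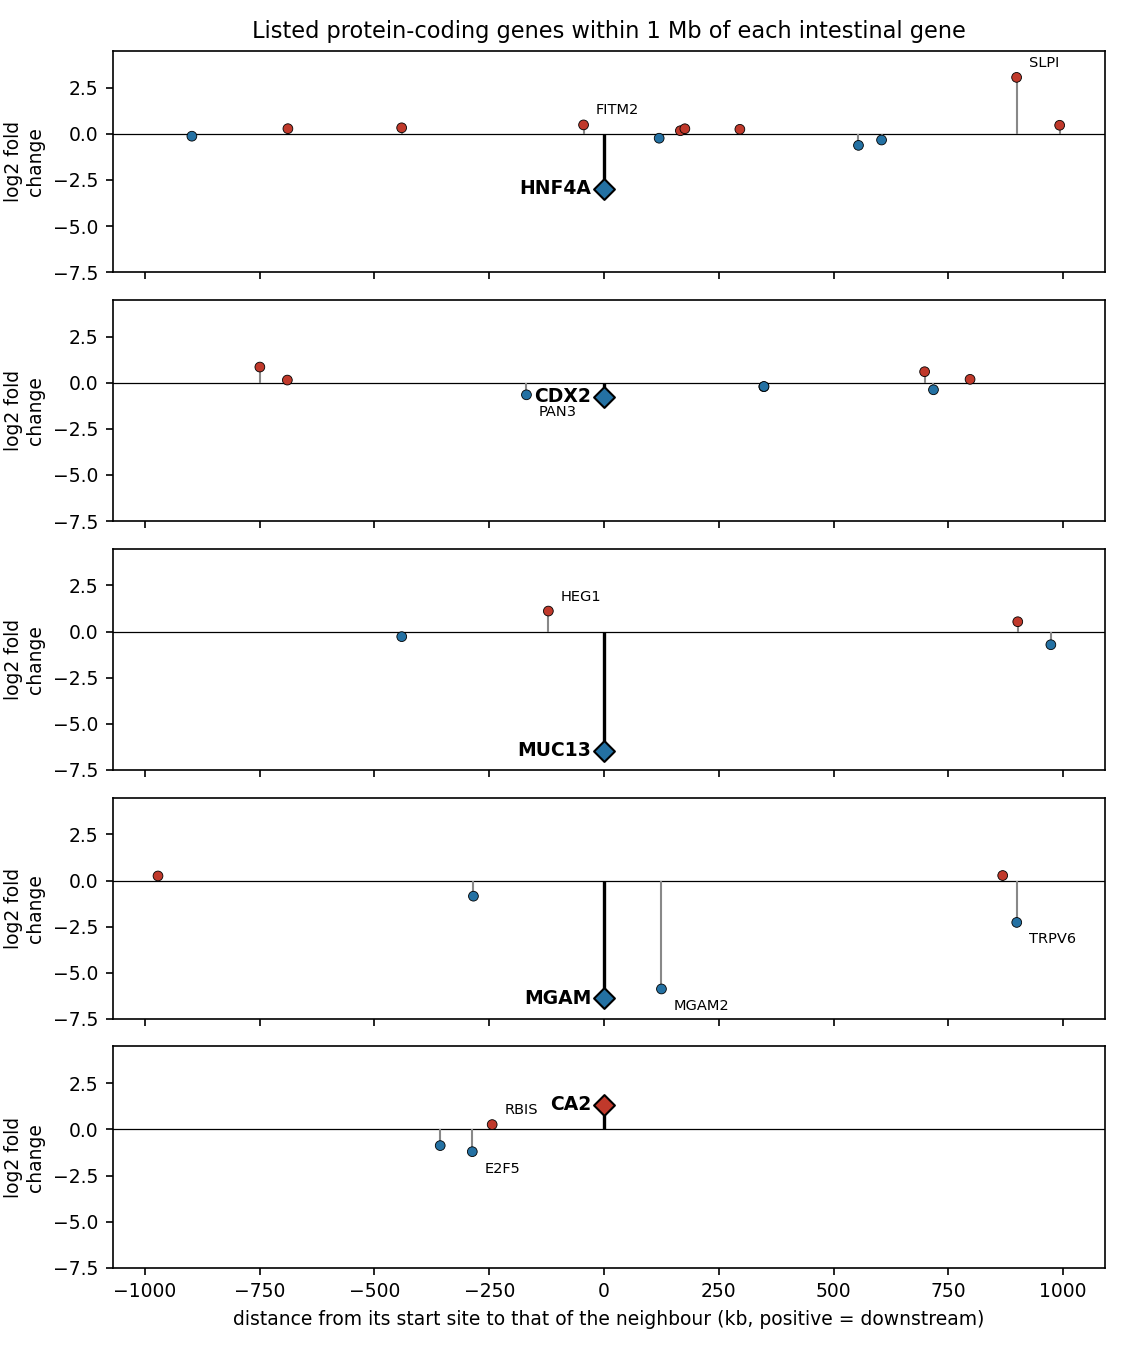
Log2 fold change (y axis) of listed protein-coding genes against the distance of their start site from that of each intestinal gene (x axis, kb, positive is downstream), 1 panel per gene, with the intestinal gene as a diamond at 0. MGAM2 falls beside MGAM (-5.88 and -6.39), whereas the nearest listed neighbours of HNF4A and MUC13 are higher.

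The wider intestinal programme was read from 9 lists of gut genes that leave out the 5 above, 172 distinct genes in all. Of these 50 were listed (29.1%, against 37.9% of coding genes), 23 as higher and 27 as lower. Their median log2 fold change was -0.22, beside 0.12 over all listed genes. For gut transcription factors, microvillus genes and mucins the median and the mean differed in sign (-0.19 and 0.17, 0.36 and -0.48, 0.51 and -0.60). By size, 12 of the 50 had a log2 ratio of -1 or less and 7 of 1 or more, while over all listed genes 6.5% and 6.11% did. A gene that is not listed may be unchanged, too weakly expressed or untested, and these cannot be told apart. The labelled cell type could not be checked against its defining markers, since no level per sample was given. In bulk RNA, fewer cells of a type and less RNA per cell cannot be told apart.

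Among 26 gut transcription factors 16 were listed (61.5%, against 37.9% of coding genes), 7 higher and 9 lower. Over all listed genes 50.7% were higher. The median log2 ratio of the 16 was -0.19 per the authors' deposited table. The epithelial ETS factor EHF and the Notch effector HES1 were 2.24-fold and 2.15-fold lower per the authors' deposited table. HNF4G, the paralog of HNF4A in gut, picked with its value in view, was 1.98-fold lower with q = 0.00221 per the authors' deposited table. So both HNF4 genes were lower, the alpha form by more.

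Other factors of the same list were higher. FOXA2, a pioneer factor of endoderm, was 5.62-fold, KLF4, a factor of differentiated surface cells, 4.51-fold and CREB3L3, a membrane-bound factor of gut and liver, 3.99-fold higher per the authors' deposited table. FOXA1 was 2.02-fold lower, opposite to FOXA2, per the authors' deposited table. CDX1, the closest relative of CDX2, was not listed. The list therefore held large changes both ways.

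Of the brush-border enzymes other than MGAM 4 of 19 were listed (21.1%, against 37.9% of coding genes). MGAM2 and ENPEP, an aminopeptidase gene, were lower, ENPEP by 2.64-fold per the authors' deposited table. GGT1, which cleaves glutathione outside the cell, and ACE, a peptidase gene, were 1.96-fold and 1.48-fold higher per the authors' deposited table. SI (sucrase-isomaltase), LCT (lactase), ANPEP, DPP4 and ALPI were not listed. After MGAM and MGAM2, at log2 ratios of -6.39 and -5.88, the next in size was ENPEP at -1.40 per the authors' deposited table.

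Of the structural genes of microvilli 11 of 25 were listed (44.0%, against 37.9% of coding genes), 6 higher and 5 lower. EPS8L3, an EPS8-like actin regulator gene, stood apart with a log2 ratio of -6.08 and q = 5.41e-06 per the authors' deposited table, beside MUC13 and MGAM in both fold and q-value. Its relative EPS8, an actin-capping gene of microvillus tips, was 1.37-fold higher per the authors' deposited table. EZR (ezrin, the link between membrane and actin) and BAIAP2L1 were each 1.40-fold higher, and the myosin gene MYO1D was 1.78-fold and CALML4 1.37-fold lower per the authors' deposited table. VIL1 (villin), MYO1A, CDHR2 and CDHR5 were not listed. Apart from EPS8L3 no listed member reached a log2 change of 1.

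Of 13 mucin genes other than MUC13, 3 were listed (23.1%, against 37.9% of coding genes). MUC4, another transmembrane mucin, was 7.41-fold lower (q = 8.43e-10) and MUC3A 1.42-fold and MUC20 1.49-fold higher per the authors' deposited table. Of 14 carbonic anhydrase genes other than CA2, 3 were listed (21.4%, also below that share). CA9, a membrane enzyme known as a hypoxia target, was 9.59-fold lower and CA11 1.29-fold lower, while CA8 was 1.88-fold higher per the authors' deposited table. CA2 and CA9 thus lay on opposite sides. CA1, CA4 and CA12 were not listed.

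Of 45 products of enterocytes and colonocytes 9 were listed, a share below the 37.9% of coding genes. Of the 9 genes 3 were higher and 6 lower, while over all listed genes 49.3% were lower. The median log2 ratio of the 9 was -0.83 per the authors' deposited table. SLC5A1, the sodium-coupled glucose carrier SGLT1 that takes up the sugar released by MGAM, had a log2 ratio of -5.66 with q = 3.47e-05 per the authors' deposited table. CLDN2, a pore-forming claudin, was 12.6-fold lower, HEPH, an iron oxidase, 5.88-fold lower and SLC15A1, the peptide carrier PEPT1, 2.16-fold lower per the authors' deposited table. KRT20, a keratin of surface cells, was 4.23-fold and the adhesion gene CEACAM1 2.53-fold higher per the authors' deposited table.

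Genes widely described as targets of the 2 factors were mostly not listed. Of 21 HNF4A targets only CLDN2 and SERPINA1 were listed, at log2 ratios of -3.66 and -0.66 per the authors' deposited table. APOA1, APOB, APOC3, MTTP and FABP1 were not. Of 17 CDX2 targets 3 were listed, CLDN2 and HEPH as lower and KRT20 as higher. Both shares, 9.52% and 17.6%, were below the 37.9% of all coding genes. The target lists share genes with the lists above.

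Listed markers of another epithelium, keratin genes and TP63, moved in the opposite direction to HNF4A, MUC13 and MGAM. Of 12 markers of basal and squamous epithelium 8 were listed (66.7%, against 37.9% of coding genes). All 8 were higher, as were 50.7% of all listed genes. Their median log2 ratio was 4.09, with a range of 0.85 to 6.12 per the authors' deposited table. SPRR1A, SPRR1B, IVL and DSG3 were not listed. KRT16 and KRT14 led with log2 ratios of 6.12 and 5.94, and TP63, the basal cell factor, picked with its value in view, was at 0.85 per the authors' deposited table. Keratin genes have close paralogs among which reads can be shared. Markers of stomach (0 of 12) and leukocytes (0 of 12) were not listed in either direction. Their part in the intestinal values was not tested.

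**Figure D4:**
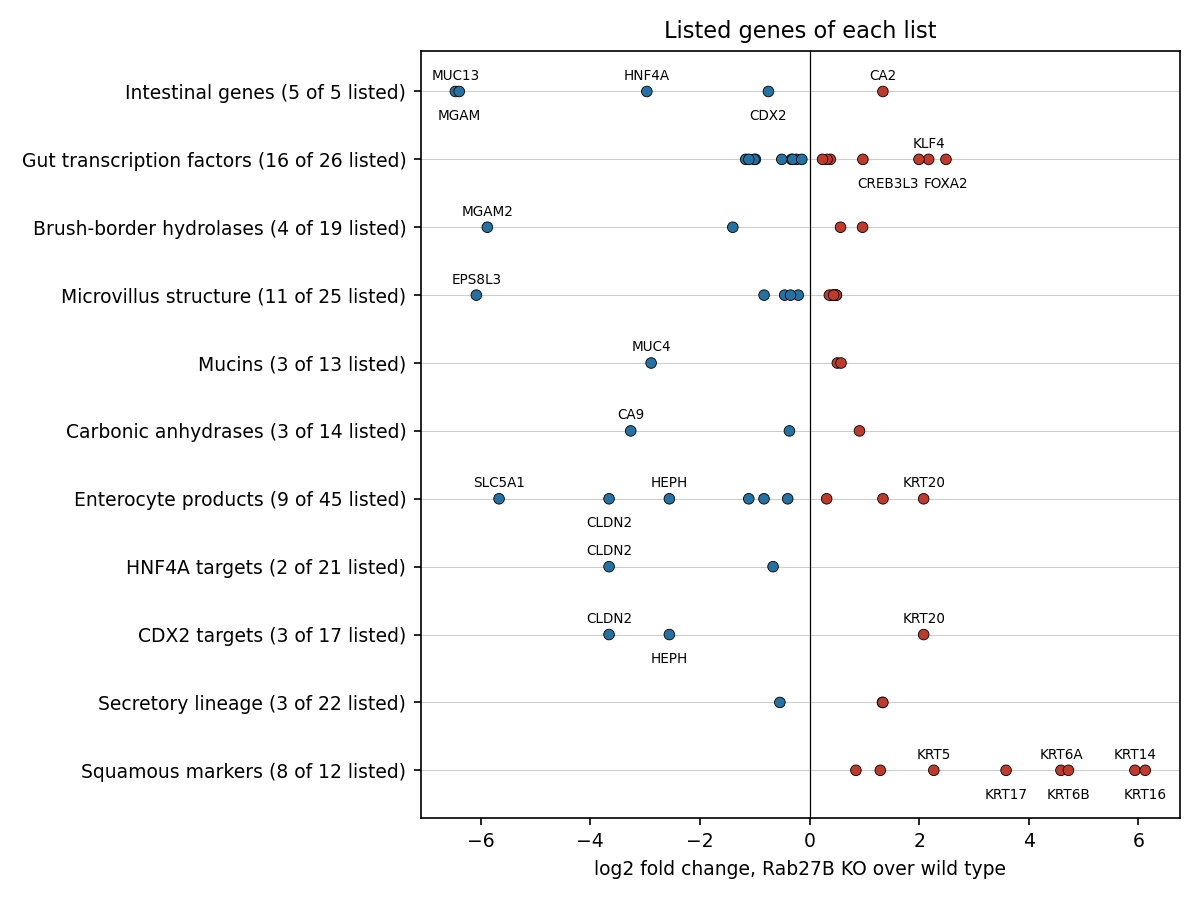
Log2 fold change, Rab27B KO relative to wild type (x axis), for each listed gene of the 5 intestinal genes, the 9 gut lists and the squamous markers (rows, with how many genes of each were listed), red for higher and blue for lower; genes far from 0 are named. Single genes of several rows lie far left (MGAM2, EPS8L3, SLC5A1) while other listed genes of the same rows lie closer to 0 or to its right, and the 8 listed squamous markers lie to the right.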

How the data were processed

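RNA was sequenced from 6 cultures, 3 per genotype, grouped by their titles. Per the labels' protocols RNA was column-purified and libraries were made for DNBSEQ. The submitters' processing notes name HISAT, Bowtie2 and GRCh38, without their roles. How genes were counted, scaled and tested: not given in the sources used here. Per the file headers, the authors deposited for each gene a log2 ratio (Rab27B KO over wild type) with its q-value, in 1 table for higher and 1 for lower genes. The linear ratio deposited for higher genes matched its log2 value to a relative difference of 4.53e-10. All q-values were below 0.05, so other genes, total counts per sample and errors were not analysed here, and depth is unknown.

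Folds were computed as 2 to the power of the size of the log2 value. Gene IDs were matched to RefSeq genes of GRCh38.p14 (7656 of 7681), which also gave coordinates, 1-based. Lists were matched by gene ID. Transcript lengths were found for 7610 genes. The 5 genes and the 14 lists were chosen with earlier results of these data known. No test was added, as foreseen for tables without samples. The named genes are the 5, RAB27B, up to 6 listed genes per list with the largest change and the 5 nearest listed neighbours. Other listed genes are marked as exceptions, and genes named as not listed are examples picked from the lists. A few list genes are not reported here. Likeness of pattern across samples could not be computed from 1 comparison. Motifs were chosen with the promoters in view. Counting and motif search were tested on simulated data. Tried as alternatives were a q-value limit of 0.01, a log2 size of 1 or more and matching by the other identifier. Python 3.11.15, pandas 2.3.3 and scipy 1.17.1 were used.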

Additional observations from a re-analysis of the deposited data

How the results depend on the processing

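No paired analysis was possible because the tables hold no values per sample, and leaving out replicates could not be done for the same reason. The log2 fold changes of HNF4A, CDX2, MUC13, MGAM and CA2 did not depend on matching by symbol or gene ID, and all 5 stayed listed at a q-value below 0.01. At that threshold 22 gut list genes were higher and 24 lower (combined count chosen after seeing the data), and higher mucin genes went from 2 to 1. At a log2 change of at least 1 fewer genes can pass by construction. The gut lists together then had 7 higher and 12 lower. Gut transcription factors had 3 higher and 3 lower, microvillus genes 0 and 1, and carbonic anhydrases 0 and 1. Higher counts became 0 for brush-border hydrolases and for mucins, the lower count became 0 for secretory genes, and 1 HNF4A target stayed lower. Chromosome shares of higher genes became 46.7% on chromosome 20, 8.33% on chromosome 13 and 52.7% on chromosome 3. Over all listed genes of that size 469 were higher and 499 lower. These shares rest on fewer genes and were given no interval. Whether the lean of chromosome 20 towards higher genes held among large changes was not tested. Depth limits on single genes are unknown.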

Other observations

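Genes of the secretory lineages of the gut were listed in 3 of 22 cases (13.6%, against 37.9% of coding genes). LYZ, the lysozyme gene of Paneth cells and of several other cell types, was 2.53-fold higher and SCG2, a secretogranin of endocrine granules, 2.51-fold higher, while FCGBP, a goblet cell product, was 1.45-fold lower per the authors' deposited table. The goblet factors ATOH1 and SPDEF, TFF3 and CHGA were not listed. Of 12 hepatocyte markers SERPINA1 alone was listed, 1.59-fold lower, and of 12 fibroblast and endothelial markers COL3A1 was 3.41-fold higher and COL1A1 1.32-fold lower per the authors' deposited table.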
